A study of Mus musculus with 8 samples.

Results

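The promoters of long intergenic non-coding RNA (lincRNA) genes were examined here in mouse neural precursor cells (NPCs) with and without knockdown of *Tet3*. A promoter was the window from 1 kb upstream to 0.5 kb downstream of a transcription start site (TSS) of an autosomal gene typed lincRNA in GENCODE vM1, on the mm9 genome. TSSs within 2 kb of a protein-coding TSS were left out, and a window needed at least 3 CpGs read by 10 or more cytosine calls in every library compared. Of the 1232 autosomal lincRNA genes, 639 had such a remote TSS, with 938 windows in all. Of these windows 554 held no CpG listed in the files, 34 held only 1 or 2, and 350 held 3 or more at any coverage. In the 4 oxidative bisulfite libraries 318 windows of 214 genes were measured, among 24364 promoter windows in total, of which 24046 belonged to protein-coding genes.

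All samples were NPCs differentiated from A2lox.cre ES cells, a mouse ES line grown on feeder cells, which carried a doxycycline-inducible shRNA. Control cells carried a non-targeting shRNA (shScr) and knockdown cells an shRNA against *Tet3* (shTet3), and both received 2 µg/ml doxycycline for 5 days. GEO's labels give neither the *Tet3* hairpin used, nor the number of clones grown, nor whether replicates were separate differentiations. DNA of each replicate was split in equal portions, one read by bisulfite sequencing (BS) and the other oxidised first (oxBS), with 2 replicates for each shRNA and 8 libraries in all. Expression was not measured in these files, so neither the NPC identity nor the knockdown was checked here.

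LincRNAs are transcripts without coding potential from genes that lie apart from protein-coding genes, and several of them act in imprinting, neural development or growth control. Promoters dense in CpGs are usually free of 5-methylcytosine (5mC), whereas CpG-poor promoters are often methylated in cells where the gene is silent. TET3 oxidises 5mC to 5-hydroxymethylcytosine (5hmC), which BS reads together with 5mC and oxBS does not, so that oxBS reports 5mC and the BS minus oxBS difference estimates 5hmC.

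The sequences below show 6 of the promoters that the results turn on, chosen as a large fall, an imprinted gene, a pair of neural genes, the largest rise and an unmethylated neural promoter. They are mm9 sequence on the strand of the gene, written 5′ to 3′, with capitals at the CpGs that were measured in all 4 oxBS libraries. CpGs in lower case were not covered. *Gm8378* is shown at chr12:92924926-92925122 (minus strand, 4 of 4 measured CpGs), *Meg3* at chr12:110784380-110784664 (plus strand, 5 of 8), *C130071C03Rik* at chr13:83878317-83878437 (plus strand, 4 of 5), *Dlx1as* at chr2:71376447-71376553 (minus strand, 3 of 3), *Gm13429* at chr2:36058545-36058665 (plus strand, 7 of 7) and *Six3os1* at chr17:86017405-86017703 (minus strand, 12 of 14).
Gm8378: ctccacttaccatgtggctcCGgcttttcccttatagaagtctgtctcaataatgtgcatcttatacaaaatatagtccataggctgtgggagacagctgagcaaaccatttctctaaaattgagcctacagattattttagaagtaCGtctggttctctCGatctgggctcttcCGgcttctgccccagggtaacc
Meg3: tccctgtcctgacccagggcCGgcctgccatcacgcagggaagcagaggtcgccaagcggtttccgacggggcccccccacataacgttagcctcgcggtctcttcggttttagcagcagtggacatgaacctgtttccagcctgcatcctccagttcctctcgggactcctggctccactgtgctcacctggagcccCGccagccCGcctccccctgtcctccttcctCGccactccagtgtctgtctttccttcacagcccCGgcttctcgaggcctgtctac
C130071C03Rik: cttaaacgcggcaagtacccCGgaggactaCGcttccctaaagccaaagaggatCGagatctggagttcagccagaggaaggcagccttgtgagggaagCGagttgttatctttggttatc
Dlx1as: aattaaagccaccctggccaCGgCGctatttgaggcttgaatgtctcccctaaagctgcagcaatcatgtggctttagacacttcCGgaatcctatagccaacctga
Gm13429: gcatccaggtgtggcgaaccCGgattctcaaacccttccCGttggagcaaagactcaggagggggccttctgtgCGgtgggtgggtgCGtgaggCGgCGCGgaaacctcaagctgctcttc
Six3os1: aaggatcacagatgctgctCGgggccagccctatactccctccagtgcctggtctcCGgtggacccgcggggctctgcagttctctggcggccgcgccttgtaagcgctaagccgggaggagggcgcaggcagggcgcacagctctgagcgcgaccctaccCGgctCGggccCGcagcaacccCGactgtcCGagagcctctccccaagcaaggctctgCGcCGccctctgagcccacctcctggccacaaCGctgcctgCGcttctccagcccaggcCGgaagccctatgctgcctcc
The same stretch of *Six3os1* held 23 CpGs in 299 bases and that of *Dlx1as* 3 CpGs in 107 bases, so CpG density differed widely among these promoters. The libraries hold fragments cut by MspI at CCGG, so that only CpGs near such sites were read.

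LincRNA promoter windows were poorer in CpGs than protein-coding ones. Their median observed over expected CpG ratio was 0.514 against 0.674, their median GC content 52.6% against 56.4%, and a window of the genome held a median of 52 CpGs against 78. The median number of measured CpGs was 11 (range 3 to 111) against 21.5, and 91 of the 318 windows rested on 3 to 5 CpGs. The median number of calls in a lincRNA window was 627 and 639 in the shScr oxBS libraries and 727 and 684 in the shTet3 oxBS libraries. The library totals ran from 42516767 to 61865967 calls, with a median coverage of 43 to 54 calls per CpG. Because some genes have several TSSs, 59 genes contributed more than 1 window, up to 10 for *Six3os1* and *1190007F08Rik*, and the 318 windows held 238 distinct sets of CpGs.

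In control NPCs the lincRNA promoters were divided between unmethylated and methylated windows. The mean oxBS level of both shScr libraries was under 10% in 170 windows, between 10 and 40% in 68, between 40 and 70% in 48 and at least 70% in 32. Among protein-coding windows 82.4% lay under 10%. There were 72 lincRNA windows (22.6%) under 1% in all 4 oxBS libraries, against 57.7% of protein-coding windows, and 27 lincRNA windows stayed over 50% in all 4. The level fell with CpG ratio in lincRNA windows (Spearman rho = -0.65 across 318 windows, which share libraries and in part CpGs) and in protein-coding windows (rho = -0.50).

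5mC at lincRNA promoters was lower in the shTet3 libraries. The mean oxBS level over the 318 windows was 21.2% and 24.4% in shScr replicates 1 and 2 and 17.2% and 17.4% in shTet3 replicates 1 and 2. Both knockdown libraries lay below both control libraries, and the shTet3 libraries lay closer together than the shScr libraries. The shScr mean was 22.8% ± 2.26 (SD, n = 2). The shTet3 mean was 17.3% ± 0.104 (SD, n = 2), which differed by -5.51 percentage points. With 2 libraries against 2 the two-sided exact permutation test cannot go below p = 0.333, the value it gave. The labels do not say that replicates came from separate cultures, so this spread may be technical. The calls carry no molecular identifiers and need not be independent molecules, so their number may understate counting error and does not measure replicate error. Restricted to the 178 windows with at least 10 CpGs the difference was -1.97.

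The BS libraries, made from the other portion of the same DNA, gave 19.3% and 21.7% with shScr and 15.9% and 16.6% with shTet3 over 317 windows. The groups did not overlap there either, and the difference was -4.26 points (exact permutation p = 0.333, the smallest possible).

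Protein-coding promoters had lower levels and a smaller difference. Their mean oxBS level was 7.76% and 9.15% with shScr and 6.42% and 6.55% with shTet3, a difference of -1.97 points. Taken per library, lincRNA windows exceeded protein-coding windows by 13.5 and 15.3 points in shScr and by 10.8 and 10.8 points in shTet3. That excess changed by -3.54 points after knockdown (exact permutation p = 0.333, the smallest possible), and by -1.14 points in windows with at least 10 CpGs. As a share of the shScr mean, the change was -24.1% for lincRNA windows and -23.3% for protein-coding windows.

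**Figure D1:**
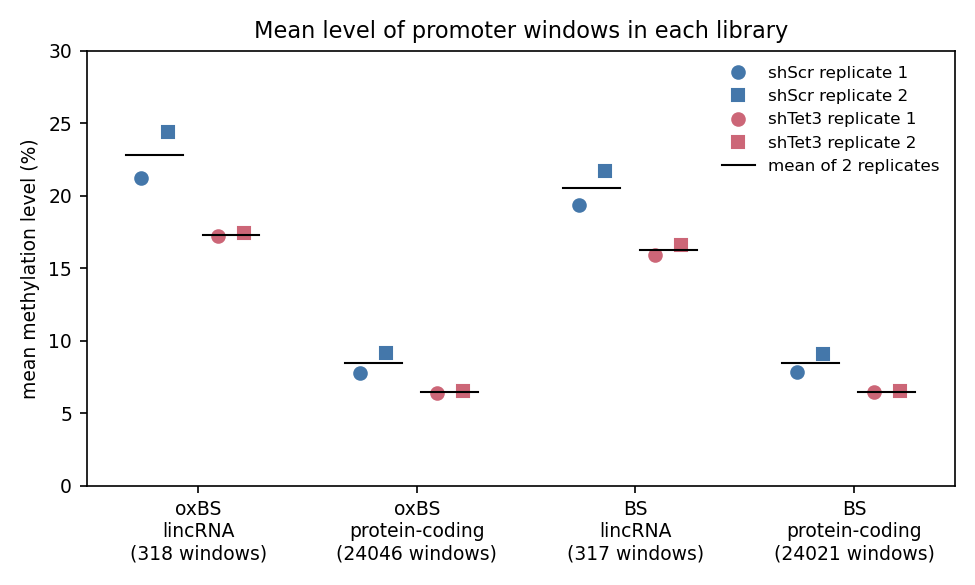
Mean methylation level in percent (vertical axis) of lincRNA and protein-coding promoter windows in each oxBS and BS library, with circles for replicate 1, squares for replicate 2 and a line at the mean of both. In the oxBS libraries the lincRNA windows stood at 21.2% and 24.4% with shScr and 17.2% and 17.4% with shTet3, above the protein-coding windows throughout.

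Most single windows moved in the same direction. The shTet3 mean was lower in 242 windows, higher in 73 and equal in 3, with a median difference of -1.46 points (interquartile range -9.67 to -0.03, range -38.4 to 8.32) against a median of -0.08 over all promoter windows. Both shTet3 libraries lay below both shScr libraries in 123 windows (38.7%) of 93 genes, while this held for 24.3% of all promoter windows. Both lay above in 20 windows (6.29%) of 8 genes, against 8.12% of all windows. A fall of more than 10 points was seen in 76 windows of 64 genes and a rise of that size in 0, against 8.25% and 0.0493% of all windows.

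**Figure D2:**
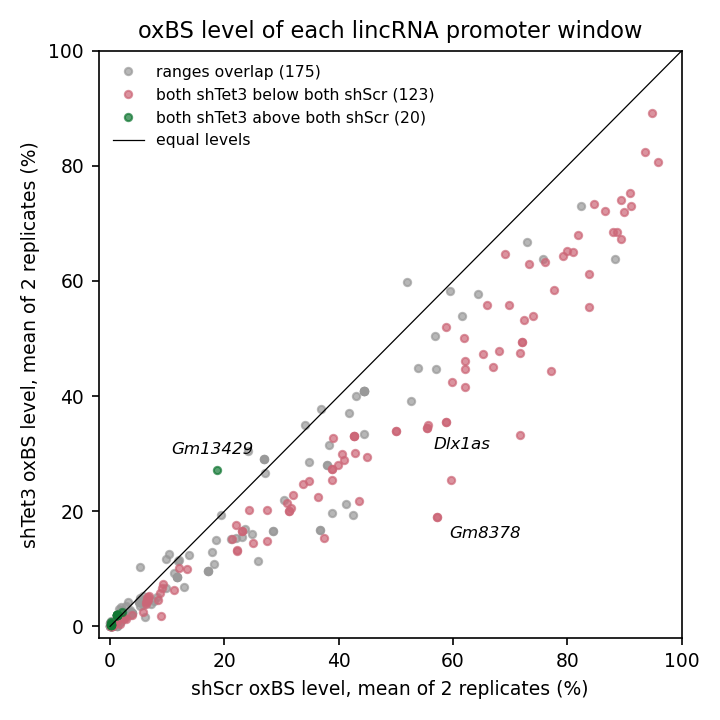
oxBS level in percent of each of the 318 lincRNA promoter windows, as the mean of 2 shScr libraries (horizontal axis) and of 2 shTet3 libraries (vertical axis), coloured by whether the libraries of the groups overlap. Most methylated windows lie below the line of equal levels, though those of *2810429I04Rik*, at 26.9% with shScr, lie 2.21 points above it. The 20 windows with both shTet3 libraries above both shScr libraries sit near 0 apart from *Gm13429*.

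The BS libraries repeated part of this order. Of the 123 windows, 115 were measured in BS, 103 of them had a lower shTet3 mean there and 66 had both shTet3 libraries below both shScr libraries. Of the 20 windows that were higher in oxBS, 19 were measured in BS and 0 had both shTet3 libraries above. Over all 317 windows of the BS set, 102 were below and 21 above without overlap, against 26.4% and 7.56% of all promoter windows.

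No lincRNA window passed the test against replicate error. limma, fitted to all 24364 windows, called 0 windows at a Benjamini-Hochberg adjusted p under 0.05 (0.0% of all windows), and the smallest adjusted p was 0.810. At an unadjusted p under 0.05 limma gave 24 lincRNA windows lower and 1 higher, where 3.92% and 1.24% of all windows did so. Fitted to logit values it gave 31 lower and 1 higher, where 1010 and 168 of all 24364 windows did so. These counts depended on single libraries. Without shScr replicate 1 there were 85 lower and 4 higher (19.1% and 0.973% of all windows), and without shScr replicate 2 there were 38 and 7 (8.04% and 2.52%). Without shTet3 replicate 2 there were 8 and 1 (0.628% and 3.3%), and without shTet3 replicate 1 more were higher than lower, with 1 lower and 7 higher (0.447% and 3.62%). In these fits the lone library of a group is assumed to vary like the others. In the BS libraries limma again called 0 windows, with 23 lincRNA windows lower and 0 higher at an unadjusted p under 0.05 (4.35% and 1.4% of all windows).

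The size of the fall followed the level of a window, as given by the BS libraries of the control. These come from the same DNA as the shScr oxBS libraries, and their gaps between replicates correlated with those of oxBS (r = 0.82), so the grouping is not independent of the control side of the difference. In 164 lincRNA windows with an shScr BS level of 0 to 10% the mean oxBS difference was -0.30 points, in 75 windows of 10 to 40% it was -7.32, in 32 windows of 40 to 70% it was -15.2 and in 30 windows of 70 to 100% it was -15.4. The protein-coding windows of the same classes gave -0.22, -5.09, -14.2 and -16.0 points. The share of lincRNA windows with both shTet3 libraries below both shScr libraries rose over these classes from 20.1% to 45.3%, 59.4% and 86.7%, and that of protein-coding windows from 17.4% to 41.0%, 63.6% and 77.8%. Grouped by CpG ratio instead, 86 lincRNA windows under 0.4 changed by -12.1 points, 132 windows from 0.4 to 0.6 by -4.65 and 100 windows of 0.6 and over by -0.97. Protein-coding windows of these ratios changed by -11.8, -2.42 and -0.36 points. No test was made within classes, so whether the 2 kinds of promoter differ at equal level was not tested.

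**Figure D3:**
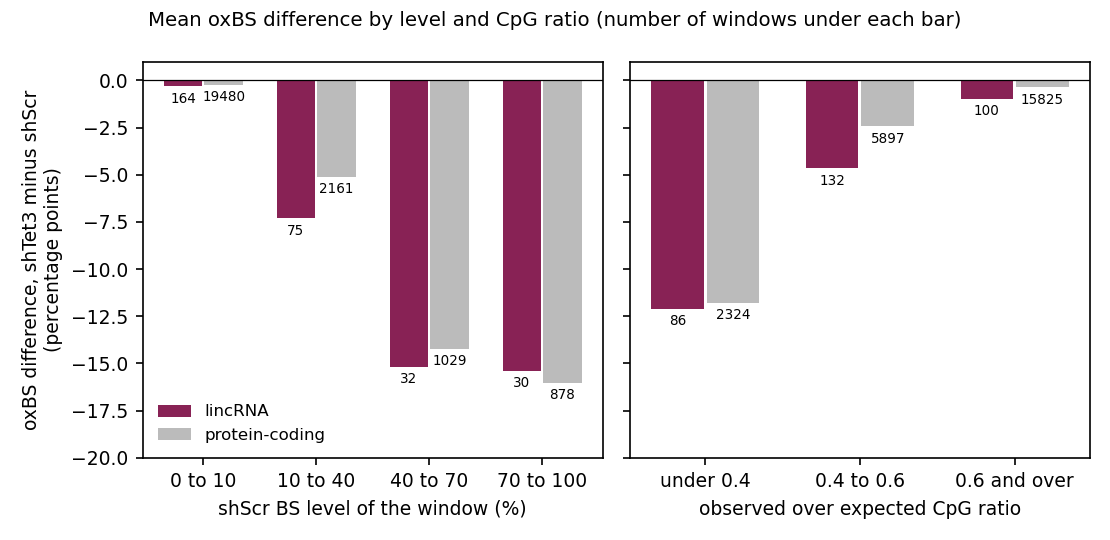
Mean oxBS difference, shTet3 minus shScr, in percentage points (vertical axis) for lincRNA and protein-coding windows grouped by their shScr BS level (left) and by observed over expected CpG ratio (right), with the number of windows under each bar. Both kinds of promoter reach -14 to -16 points at levels of 40% and over, and stay near 0 below 10%.

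The level varied with position in the window. CpGs 1000 to 750 bases upstream of a lincRNA TSS averaged 36.7% and 43.4% with shScr and 30.5% and 33.2% with shTet3 (105 CpGs). CpGs in the 250 bases before the TSS averaged 10.1% and 12.9% with shScr and 8.88% and 8.61% with shTet3 (1021 CpGs). The difference was -8.26 points in the former bin and -2.73 in the latter, and all 6 bins had both shTet3 libraries below both shScr libraries. Around protein-coding TSSs the corresponding differences were -4.49 and -0.79 points.

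**Figure D4:**
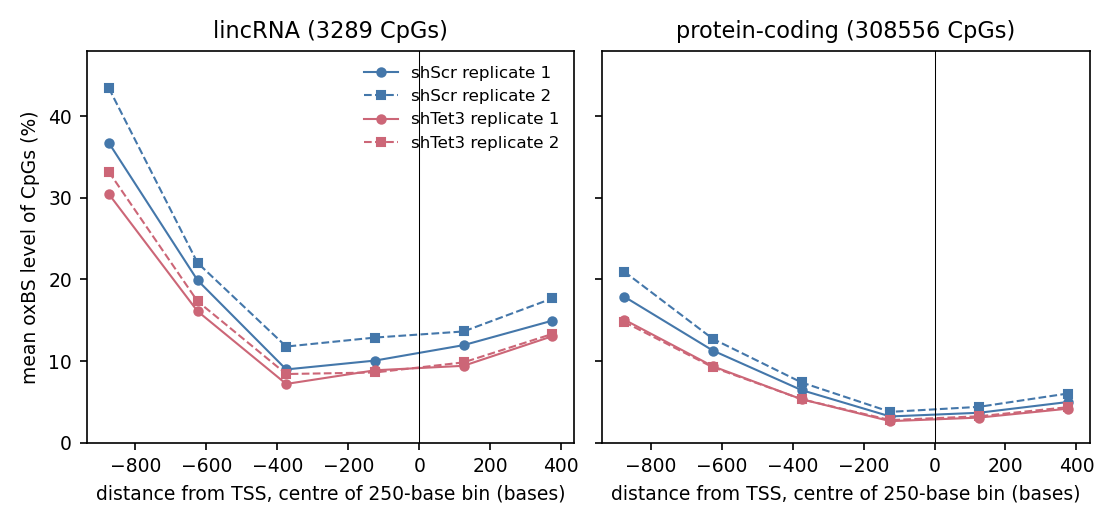
Mean oxBS level in percent of single CpGs (vertical axis) by distance from the nearest TSS in bins of 250 bases (horizontal axis), for lincRNA and protein-coding promoters, with 1 line per library. lincRNA CpGs lie above protein-coding CpGs in every bin, and the lincRNA level is lowest between 500 bases upstream and the TSS.

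The mean difference was negative at every distance from protein-coding genes. The mean oxBS level was 20.5% and 22.5% with shScr and 17.2% and 15.8% with shTet3 for 51 windows 2 to 5 kb from a protein-coding TSS, a difference of -5.05 points. For 183 windows at 5 to 50 kb it was 19.9% and 22.9% against 16.3% and 17.1% (-4.67), and for 84 windows beyond 50 kb it was 24.6% and 29.0% against 19.3% and 18.99% (-7.60). In 77 windows the TSS lay inside a protein-coding gene, on the opposite strand in all but 4. These had higher levels, 37.0% and 43.0% with shScr and 31.2% and 32.1% with shTet3 (-8.38), than the 241 windows outside protein-coding genes, with 16.2% and 18.5% with shScr and 12.8% and 12.7% with shTet3 (-4.59).

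The annotation of these genes has since changed in part. RefSeq on GRCm38.p6 matched 140 of the 214 genes and listed 122 of them as lncRNA, 10 as protein coding, 5 as transcribed pseudogene and 2 as antisense RNA. The protein-coding entries, such as *Fam150a* (now *Alkal1*) and *1190007F08Rik* (now *Smim1*), held 26 windows, and without them the mean difference was -5.89 points.

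The largest falls were in CpG-poor windows of little-studied lincRNAs. The window of *Gm17480* (TSS at chr17:25931839, inside *Metrn*, the gene of the neurotrophic factor meteorin) stood at 58.7% and 84.8% with shScr and 30.8% and 35.8% with shTet3, a difference of -38.4 points (SE 11.5, limma). That of *Gm8378* (chr12:92924508, inside *Ston2*, an adaptor of endocytosis) stood at 36.2% and 78.2% with shScr and 21.1% and 16.997% with shTet3, a difference of -38.2 (SE 16.5). These windows were chosen among those without overlap between groups, so the absence of overlap is no finding. The shScr replicates of *Gm8378* were farther apart than its groups. *G730013B05Rik* on chromosome 16 showed a like gap between controls, with 38.8% and 80.4% with shScr and 24.0% and 26.8% with shTet3. *BC065403* on chromosome 9 had 67.5% and 86.7% with shScr and 36.9% and 51.8% with shTet3, and *Gm12503* on chromosome 4 had 78.9% and 88.8% against 42.6% and 68.4%. These 5 windows rested on 3 or 4 CpGs each, and the limma adjusted p was 0.810 for all of them.

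The next falls described here had shScr replicates 6.46 to 18.5 points apart, against 9.85 to 41.9 points in the windows before them. *Gm16990*, inside *Sparcl1*, a gene of a synapse-promoting matrix protein, stood at 65.0% and 78.4% with shScr and 47.0% and 48.05% with shTet3. *Gm11748*, inside *Engase*, had 80.5% and 87.0% against 58.0% and 64.5% over 9 CpGs. *Gm10151* on chromosome 4 had 33.8% and 41.2% against 18.4% and 12.2%, and *Zfp133-ps*, a transcribed pseudogene, had 62.8% and 81.3% against 43.8% and 55.1%. The differences of these windows lay between -24.2 and -22.2 points. Their BS libraries gave differences of -6.04 for *Gm16990*, -10.1 for *Gm11748*, -10.5 for *Gm10151* and -14.8 for *Zfp133-ps*. The CpGs were not all the same, with 3 in BS against 4 in oxBS for *Gm16990*, 8 against 9 for *Gm11748* and 6 against 4 for *Gm10151*. At the 4 oxBS CpGs of *Gm10151* the pooled BS differences were -18.1, -19.5, -37.9 and -24.4 points. These windows were chosen for their oxBS falls, so the sizes in BS and oxBS were not compared on equal terms.

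In the oxBS libraries the rises were small. *Gm13429*, whose 7 measured CpGs lie downstream of its TSS in the sequence above, went from 15.2% and 22.3% in shScr to 26.7% and 27.5% in shTet3, a rise of 8.32 points (SE 4.32, limma adjusted p = 0.810). The next largest without overlap was 0.83 points at *Six3os1*, an RNA divergent from the eye and forebrain homeobox gene *Six3*, at 0.68% and 1.71% with shScr and 2.16% and 1.88% with shTet3. *Six3os1* made up 10 of the 20 windows that were higher in both shTet3 libraries, all of them on the same 14 CpGs. *4933404O12Rik*, *Gm16065* and *1700023L04Rik* rose by 0.72, 0.37 and 0.20 points from levels of at most 2.10%. In the BS libraries 66 lincRNA windows fell and 4 rose by more than 10 points (7.8% and 0.0657% of all windows). Of the 4 rises, 3 were overlapping windows of *2810429I04Rik* on the same 5 CpGs, at 7.65% and 22.2% for shScr and 53.6% and 14.5% for shTet3, a difference of 19.1 points that was the highest of all BS windows and came from shTet3 replicate 1 alone. The fourth was *Gm14488*, at 17.3% and 9.89% for shScr and 22.3% and 27.5% for shTet3 (11.3), whose oxBS difference was -7.44. These genes were chosen after their values were seen.

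**Figure D5:**
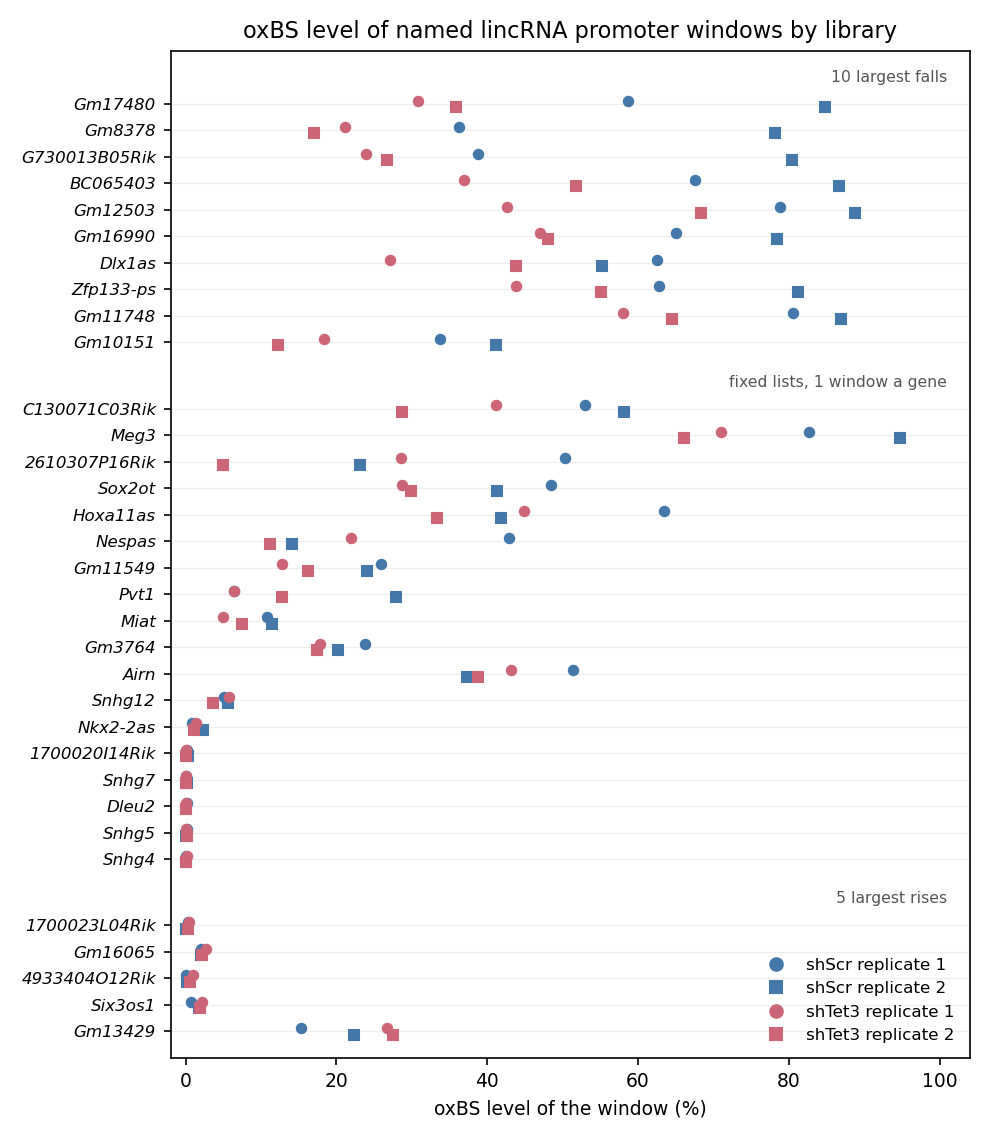
oxBS level in percent (horizontal axis) of named lincRNA promoter windows in each of the 4 oxBS libraries, for the 10 largest falls and 5 largest rises without overlap and for genes of fixed lists (1 window a gene). By that choice shTet3 points lie left of shScr points in the 10 upper rows, and the housekeeping RNA hosts and *Six3os1* sit near 0 in all libraries.

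Lists of known lincRNAs were also followed, and limma called 0 of their windows. Of 10 measured neural lincRNA genes with 24 windows, 9 windows had both shTet3 libraries below both shScr libraries. Another 10, all *Six3os1*, had both above. Over all promoter windows these shares were 24.3% and 8.12%. The median difference was -0.33 points, and differences ran from -23.4 to 0.83. Because the *Six3os1* windows rest on the same 14 CpGs, the median and the count above weigh that promoter 10 times. Among the 9 below, *Dlx1as* and *1700020I14Rik* each gave 2 windows on 1 set of CpGs, and those of *1700020I14Rik* differed by only -0.28 points. *Six3os1* was the only gene of this list with a rise. *Dlx1as*, transcribed opposite the interneuron homeobox gene *Dlx1*, had 62.5% and 55.2% with shScr and 27.1% and 43.8% with shTet3, a difference of -23.4 points (SE 9.14) over 3 CpGs. *C130071C03Rik*, the host of a miR-9 precursor, had 53.0% and 58.2% with shScr and 41.2% and 28.7% with shTet3 (-20.6) at its TSS at chr13:83878486. At its other TSS, chr13:83861160, the level was 29.2% and 14.9% with shScr and 14.9% and 15.8% with shTet3, so that the groups overlapped. *2610307P16Rik*, whose nearest protein-coding TSS is that of *Sox4*, had 50.3% and 23.2% with shScr and 28.6% and 4.93% with shTet3, again overlapping.

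*Sox2ot*, whose transcription unit contains *Sox2*, differed between its TSSs. At chr3:34555359 it stood at 48.5% and 41.3% with shScr and 28.7% and 29.9% with shTet3 (-15.5), and at chr3:34564165 at 21.4% and 2.49% with shScr and 12.8% and 9.82% with shTet3 (-0.60). *Miat*, a nuclear RNA of neurons and retina, had 10.8% and 11.5% against 4.99% and 7.51% (-4.89), without overlap. *Gm11549*, which RefSeq now lists as the protein-coding gene *Smim43*, had 26.0% and 24.0% against 12.8% and 16.2% (-10.5), and *Gm3764* had 23.8% and 20.2% against 17.8% and 17.4% (-4.38). *Nkx2-2as* and *1700020I14Rik* (*Oip5os1* in RefSeq) stayed at or under 2.27% in all 4 oxBS libraries.

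Imprinted lincRNAs contributed 13 windows of *Meg3*, *Airn* and *Nespas*, with 6 below and 0 above (24.3% and 8.12% of all windows) and a median difference of -9.67 points. These counts repeat CpGs, as the 6 windows of *Meg3* held 4 sets, the 5 of *Airn* 1 set and the 2 of *Nespas* 1 set. *Meg3*, a maternally expressed RNA, gave all 6 windows below. Its upstream window (TSS chr12:110779211) stood at 39.9% and 45.6% with shScr and 32.5% and 33.6% with shTet3 (-9.67), and its windows at chr12:110784655 and chr12:110787465 fell by 19.3 and 20.2 points from levels of 75.0% and 80.3% and of 82.6% and 94.8% in shScr. In the BS libraries the upstream window had 40.7% and 19.2% with shScr and 34.7% and 28.5% with shTet3, so that the groups overlapped there. *Airn*, the paternally expressed antisense RNA of *Igf2r*, stood at 51.3% and 37.4% with shScr and 43.1% and 38.8% with shTet3 (-3.38). *Nespas*, antisense at the *Gnas* locus, stood at 42.9% and 14.1% with shScr and 21.9% and 11.2% with shTet3 (-12.0), and both overlapped.

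Hosts of small nucleolar RNAs had little methylation. *Snhg4*, *Snhg5* and *Snhg7* lay at or under 0.19% in every oxBS library and *Snhg12* at or under 5.71%, and 8 windows of these genes had a median difference of -0.10 points, with 2 below and 0 above (24.3% and 8.12% of all windows). The 2 below were windows of *Snhg7* on the same CpGs. Among lincRNAs of growth control, *Dleu2*, the host of miR-15a and miR-16-1, lay at or under 0.16%, and *Pvt1*, downstream of *Myc*, at 6.40% and 28.0% with shScr and 6.46% and 12.8% with shTet3. The 12 windows of that list, *Meg3* included, had a median difference of -8.61, with 9 below (6 of *Meg3* and 3 of *Dleu2*) and 0 above, beside the same shares of all windows. These counts repeat CpGs, as the 6 windows of *Meg3* held 4 sets, the 3 of *Dleu2* 2 sets and the 3 of *Pvt1* 1 set. The *Dleu2* windows differed by only -0.10 to -0.08 points. *Hoxa11as*, the only HOX lincRNA measured, had 63.5% and 41.9% with shScr and 44.9% and 33.4% with shTet3, which overlapped (-13.5). No gene of the list of 37 pluripotency lincRNA symbols had a measured window.

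Some genes held both unmethylated and methylated promoters. Of 59 genes with several windows, 10 had windows whose shScr levels lay over 10 points apart. *Abhd1*, which RefSeq lists as a transcribed pseudogene, lay at 0.17% and 0.51% in shScr at its first TSS and at 90.5% and 91.7% at chr5:31255746, where shTet3 had 70.8% and 75.3%. In *D230017M19Rik* a pair of TSSs lay at or under 1.20% in all 4 oxBS libraries while the TSS at chr1:72311267 stood at 85.1% and 90.7% with shScr and 56.1% and 80.9% with shTet3. *Atp10d* went from at most 0.36% at its first TSS to 85.9% and 72.5% in shScr at chr5:72671286, with 56.6% and 72.0% in shTet3.

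Differentially methylated positions (DMPs) were called per CpG by logistic regression, at q below 0.01 and a pooled difference of over 10 points. This test weighs the calls and not the spread between replicates. Of the 3289 measured CpGs in lincRNA windows, 181 (5.50%) were lower in shTet3 (hypo-DMPs) and 2 (0.0608%) higher (hyper-DMPs), against 13.9% and 0.0814% of all 662455 CpGs tested. Of the 308556 CpGs in protein-coding windows, 1.89% were hypo-DMPs and 0.0538% hyper-DMPs. An F test with overdispersion taken from the replicates called 0 lincRNA CpGs at the same thresholds, and 0 of all CpGs. At an unadjusted p under 0.05 it gave 19 of the 3289 lincRNA CpGs lower and 0 higher, against 12984 and 21 of all 662455 CpGs. In shScr, 68.3% of the lincRNA CpGs were under 10%, against 54.1% of all CpGs. Among CpGs over 10%, 17.5% were hypo-DMPs in lincRNA windows and 30.4% over all CpGs.

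The hypo-DMPs lay in 92 windows of 74 genes, with 3 or more in 32 windows of 26 genes. Their median shScr level was 68.2% and their median difference -23.0 points. In the BS libraries 173 of them were covered, 164 were lower in shTet3 and 51 were hypo-DMPs in their own right. Those libraries on their own gave 160 hypo-DMPs (4.85%) and 3 hyper-DMPs (0.0910%) among 3298 CpGs, against 13.8% and 0.0621% of all CpGs. In protein-coding windows they gave 1.77% and 0.0391%. Without shTet3 replicate 1 the oxBS count was 88 and without shScr replicate 2 it was 112, against 238 without shScr replicate 1. The count of hyper-DMPs was 24 without shScr replicate 2 and 4 to 6 without each of the other libraries. The level of shScr replicate 2 exceeded that of replicate 1 in 220 of the 318 windows.

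*D130017N08Rik* on chromosome 5 had the most hypo-DMPs, 9 of 15 CpGs, with 67.4% and 77.5% with shScr and 49.3% and 57.3% with shTet3. *Gm17717* followed with 6 of 16 CpGs, and *Gm11748*, *Gm17458*, *9330175E14Rik*, *Gm17638*, *Gm17470* and the upstream window of *C130071C03Rik* each had 5. In BS, *9330175E14Rik* differed by 0.16 points with overlapping groups and had 0 hypo-DMPs. The groups also overlapped in BS for *D130017N08Rik*, *Gm17717*, *Gm17470* and the upstream *C130071C03Rik* window, which overlapped in oxBS too. They did not overlap in BS for *Gm11748*, *Gm17458* and *Gm17638*, with 1, 5 and 2 BS hypo-DMPs. *Gm17638*, inside *Eif3d*, was nearly fully methylated, at 91.5% and 95.8% with shScr and 83.1% and 81.6% with shTet3. In 4 windows of *G730013B05Rik*, *Gm16990* and *Gm8378* every measured CpG was a hypo-DMP.

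Within a promoter the CpGs differed in level or in the size of their difference, but no test compared them with each other. In the *Gm8378* sequence above, the CpG at base 21 stood at 75.2% and 85.3% with shScr and 32.6% and 51.6% with shTet3. The CpG at base 176 stood at 18.9% and 75.8% with shScr and 16% and 5.26% with shTet3, on 19 to 37 calls, so that its difference rested on shScr replicate 2. In *Meg3*, the CpGs at bases 199, 207 and 264 were hypo-DMPs with differences of -28.1, -34.1 and -32.4 points, and those at bases 21 and 230 were not (-15.2 and -16.8). In *Dlx1as*, the CpG at base 21 differed by -39.8 points and the one beginning 3 bases further by -8.44.

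The hyper-DMPs were a CpG in *Gm13429* and a CpG in *Gm4349*. The former, at base 95 of the sequence above (chr2:36058639), had 6.67% and 25% with shScr and 43.2% and 41.2% with shTet3 on 16 to 44 calls, while BS gave 48.5% and 54.5% with shScr and 35.1% and 20% with shTet3 on 5 to 37 calls. The latter, at chr3:95231838, had 5.17% and 60.3% with shScr and 62.7% and 58.5% with shTet3, so that shScr replicate 1 alone was low.

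The BS minus oxBS difference was small at lincRNA promoters. Over the 301 windows covered in all 8 libraries, BS minus oxBS was -0.17 and -0.24 points for shScr, and 0.30 and 0.72 for shTet3. Means were -0.205 ± 0.0513 (SD, n = 2) and 0.515 ± 0.297 (SD, n = 2), and the smallest p that an exact sign-flip test allows with 2 pairs, 0.5, was reached in both. The sign in shScr depended on the windows used, being 0.215 in windows with at least 10 CpGs, and that in shTet3 was then -0.0112. Protein-coding windows gave 0.255 and 0.148 in shScr and 0.170 and 0.133 in shTet3.

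limma called 0 lincRNA windows as different between BS and oxBS in either shRNA. At an unadjusted p under 0.05 it gave 4 above and 1 below in shScr, where 1.46% and 1.01% of all windows did so, and 9 above and 5 below in shTet3, against 2.65% and 1.87%. With BS and oxBS paired by their DNA, the counts were 10 above and 9 below in shScr (2.04% and 0.996% of all windows) and 6 above and 3 below in shTet3 (1.83% and 1.15%). Per CpG, logistic regression called 9 lincRNA CpGs above and 7 below in shScr (0.33% and 0.17% of all CpGs) and 1 above and 0 below in shTet3 (0.0239% and 0.0141%). 5hmC cannot give a BS level below the oxBS level, and in shScr the calls below were 7 against 9 above. An F test with overdispersion called 0 CpGs in either direction in both shRNAs.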

How the data were processed

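The 8 deposited files, 1 per library, list for each CpG the coverage and the percent of methylated and unmethylated calls, made by the authors with Trim Galore, Bismark and methylKit on mm9 per the labels (versions are not given in the sources used here). Whole counts of methylated calls were recovered from these deposited percent values and the coverage counts. All 757812 positions listed in every file were checked to be a CpG of mm9. CpGs with at least 10 calls in each library compared were kept. Windows were taken on autosomes only, and a window level is the unweighted mean percent of its CpGs. The tests per CpG ran over all listed CpGs with that coverage, without a limit to autosomes.

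Library means were compared by two-sided exact permutation tests, windows by limma 3.58.1 (R 4.3.3; eBayes with trend, Benjamini-Hochberg over all promoter windows), and CpGs by logistic regression without overdispersion (q below 0.01, over 10 points, adjusted over all CpGs), in Python 3.11.15 with numpy 2.4.6, pandas 2.3.3 and scipy 1.17.1. The scripts were tested on simulated data. Named windows were the 10 largest falls and 5 largest rises without overlap between groups (1 window a gene), the measured genes of 6 lists of known lincRNAs, and up to 10 genes with the most DMPs. *Abhd1*, *D230017M19Rik* and *Atp10d*, and the CpGs described within promoters, were chosen after their values were seen. The members, lists and tests were chosen with earlier results of these data known. BS and oxBS libraries of a number come from 1 DNA per the labels, and their gaps between replicates correlated across windows (r = 0.82 in shScr and 0.48 in shTet3). Alternatives covered coverage, windows, weighting, tests and left-out libraries. RefSeq promoter sequences are on GRCm38 and were not used here.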

Additional observations from a re-analysis of the deposited data

Results flagged for a closer look

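The mean BS minus oxBS difference over lincRNA promoter windows had opposite signs in the 2 shRNAs. It was -0.17 and -0.24 points in the shScr replicates and 0.30 and 0.72 points in the shTet3 replicates (301 windows), so that each replicate of an shRNA lay on the same side of 0. The difference between shRNAs was 0.720 points, and the exact permutation test gave p = 0.333, the smallest that 2 against 2 allows. In windows with at least 10 CpGs the signs were the other way round, at 0.215 in shScr and -0.0112 in shTet3.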

How the results depend on the processing

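The fall in mean oxBS level, the fall in mean BS level and the smaller lincRNA excess over protein-coding windows kept their direction under every alternative run for them. Among the alternative values of all main results 118 were counted as kept, 17 counts moved by more than a set ratio and 4 differences changed sign. A difference was counted as kept when its sign held, because these exact tests cannot go below p = 0.05. Its size could still change, and a count was kept when it stayed within that ratio. Leaving out 1 library at a time gave -7.11 to -3.91 points for oxBS, -5.43 to -3.09 for BS and -4.45 to -2.63 for the excess, 88 to 238 hypo-DMPs and 4 to 24 hyper-DMPs. limma called 0 windows in each of these. At an unadjusted p, limma on all 4 libraries gave 24 lower and 1 higher, and the fits without 1 library gave 1 to 85 lower and 1 to 7 higher, with more higher than lower without shTet3 replicate 1. Hypo-DMPs numbered 293 with windows of -2 to +1 kb, 70 at over 25 points and 0 with overdispersion (13.9%, 6.97% and 0% of all CpGs). Hyper-DMPs numbered 1 at 20 calls and 0 with overdispersion (0.0996% and 0% of all CpGs). With overdispersion, CpGs with BS above or below oxBS numbered 0 in both shRNAs. BS minus oxBS in shScr turned to 0.190 at 5 calls, 0.215 with at least 10 CpGs and 0.106 without overlapping windows, and in shTet3 to -0.0112 with at least 10 CpGs. Alternatives chosen after seeing the data gave oxBS differences of -5.89 without genes RefSeq lists as protein coding, -6.23 with 1 value a gene and -4.59 with TSSs outside protein-coding genes. The cause of these shifts was not tested.

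shScr and shTet3 share only a replicate number. Gaps between their replicates correlated at r = 0.125 across the 318 windows. The fit with that replicate block gave 184 hypo-DMPs and 2 hyper-DMPs (14.5% and 0.0806% of all CpGs) and 0 windows by limma. With the replicate block of BS and oxBS portions, shScr CpGs with BS below oxBS numbered 3 and those above 10 (0.174% and 0.322% of all CpGs). Windows at an unadjusted p by limma numbered 9 below and 10 above.

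For the 71 named windows 492 alternative values were computed and 5 more could not be given. Of these windows 19 changed sign under some alternative, 6 of them among the 36 that differed by over 5 points. Weighted by calls, *Snhg12* (3 TSSs) gave 0.853. Leaving out 1 library gave -26.4 to 2.43 for *Nespas*, -10.3 to 3.58 for *Airn*, -10.04 to 8.83 for *Sox2ot* at 34564165, -13.9 to 0.45 for *C130071C03Rik* at 83861160, -18.3 to 3.23 for *Pvt1*, -1.07 to 0.30 for *Nkx2-2as*, -1.72 to 0.40 for *Snhg12* (3 TSSs), -0.184 to 0.0425 at its TSS at 131865544, -0.101 to 0.0241 for *Snhg5* and -0.0487 to 0.141 for *Snhg4*. Each of these windows had overlapping groups. Windows of 3 or 4 CpGs and levels read at 10 to 20 calls limit the precision of single promoters.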
